A study of Mus musculus with 4 samples.

Results

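The genes described are 8 enzymes and carriers of gluconeogenesis, fructose, glycerol and inositol metabolism (G6pc, Slc37a4, Fbp1, Pck1, Pcx, Khk, Gk and Miox), out of 22809 genes listed in glomeruli of mouse kidney. The 8 were chosen by symbol with their values in this same contrast already known. Their differences between the groups are therefore a description and carry no test. Poly(A) RNA came from isolated glomeruli, the capillary tufts that filter blood, of 3-week-old mice, with 2 mice pooled per library. There were 2 libraries labelled HDAC KO, a knockout restricted to podocytes that the series' title gives as a deficiency of Hdac1 and Hdac2, and 2 libraries labelled as wild-type controls with no treatment. The sources used here give no recombinase, driving promoter, strain or sex. Podocytes cover the outside of these capillaries with their foot processes, and HDAC1 and HDAC2 are histone deacetylases of corepressor complexes.

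Gluconeogenesis builds glucose from lactate, amino acids and glycerol, and in the kidney it belongs to the proximal tubule, not to the glomerulus. Pyruvate carboxylase (Pcx) makes oxaloacetate in mitochondria, the cytosolic phosphoenolpyruvate carboxykinase (Pck1) turns it into phosphoenolpyruvate, fructose-1,6-bisphosphatase (Fbp1) removes a phosphate further up the path, and glucose-6-phosphatase (G6pc) releases free glucose inside the endoplasmic reticulum, where the transporter encoded by Slc37a4 brings its substrate. Ketohexokinase (Khk) and glycerol kinase (Gk) phosphorylate fructose and glycerol, which then join the same path, and myo-inositol oxygenase (Miox) opens inositol to glucuronate, a step found mostly in the proximal tubule.

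Sequences before the start site are shown for Miox and G6pc, which had the largest log2 fold changes in size, and for Pck1, which had the smallest. Each run is the 250 bases before the RefSeq start site in GRCm38.p6, read 5′ to 3′ on the gene's strand, which is the plus strand for all 3. They lie at chr15:89334223-89334472 (Miox), chr11:101367466-101367715 (G6pc) and chr2:173152823-173153072 (Pck1). The gene coordinates given below, from GENCODE, start inside each of these 3 runs. Distances to the start therefore hold for the RefSeq start site only. Capitals mark matches on either strand to the TATA box (TATAAA) and the core of the cyclic AMP response element (TGACG).
Miox: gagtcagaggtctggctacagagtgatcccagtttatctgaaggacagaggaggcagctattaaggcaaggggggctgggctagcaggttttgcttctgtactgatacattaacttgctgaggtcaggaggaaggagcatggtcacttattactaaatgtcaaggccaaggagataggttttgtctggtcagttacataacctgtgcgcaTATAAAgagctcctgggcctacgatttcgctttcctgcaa
G6pc: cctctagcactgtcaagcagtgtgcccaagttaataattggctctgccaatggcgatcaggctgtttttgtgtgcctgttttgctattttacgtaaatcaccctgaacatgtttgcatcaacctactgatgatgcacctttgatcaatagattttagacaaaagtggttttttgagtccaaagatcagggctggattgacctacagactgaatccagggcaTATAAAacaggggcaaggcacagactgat
Pck1: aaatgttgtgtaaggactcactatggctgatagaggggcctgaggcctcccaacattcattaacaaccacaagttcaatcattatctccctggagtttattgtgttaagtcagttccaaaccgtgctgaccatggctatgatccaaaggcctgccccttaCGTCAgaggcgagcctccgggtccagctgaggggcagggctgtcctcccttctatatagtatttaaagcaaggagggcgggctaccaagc

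Miox and G6pc each had an exact match to TATAAA, which ended 35 bases before the start in Miox and 24 bases before it in G6pc. Pck1 had no exact match to TATAAA, and near matches such as the tatttaaa in its run were not counted. It held a match to TGACG, read on the opposite strand, 90 to 86 bases before the start. In Khk a match to TGACG, also on the opposite strand, overlapped the E-box CACGTG by 2 bases. RefSeq windows were found for all 8 genes, 11 in all, since Slc37a4 has 3 start sites and Pcx has 2. TATAAA matched in 3 of the 8 genes (G6pc, Slc37a4 and Miox) and in 12.4% of the 32851 windows of the same length, CACGTG in 3 genes (Pcx, Khk and Gk) and 6.02%, and TGACG in 3 genes (Slc37a4, Pck1 and Khk) and 17.8%. The full cyclic AMP response element TGACGTCA, which contains TGACG, was in 0 of the 8 genes and 1.55% of windows. The HNF4 site CAAAGTCCA was in 0 genes and 0.384% of windows, and the forkhead site TGTTTAC was in 0 genes and 3.17% of windows. These are matches of letters and were not tested as binding sites. A further planned motif, GTTAAT (part of the HNF1 site), was not counted.

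The libraries need a description before the values. Whole reads recovered from the TPM values (counts per length, scaled to the same total in every library) numbered 17476365 and 20943138 in the HDAC KO-labelled libraries and 15808117 and 12876939 in the controls. Mitochondrially encoded genes held 40.8% and 38.7% of the TPM in the HDAC KO-labelled libraries, against 40.2% and 46.5% in the controls. Hdac1 was at 22.9 and 22.5 TPM in the HDAC KO-labelled libraries, against 19.3 and 18.6 TPM in the controls, and Hdac2 was at 23.5 and 20.9 TPM, against 20.2 and 24.1 TPM. Hdac1 was thus higher in the labelled libraries and the Hdac2 values of the groups overlapped, so neither checks the knockout, and every direction given here rests on the labels. All 10 podocyte markers were detected in every library and summed to 231 and 476 TPM in the HDAC KO-labelled libraries, against 642 and 1000.0 TPM in the controls. Markers of glomerular endothelium summed to 177 and 366 TPM, against 235 and 537 TPM. Both sums were thus higher in replicate 2 than in replicate 1 of each group. The 16 proximal tubule markers, also all detected, summed to 4628 and 5133 TPM in the HDAC KO-labelled libraries, against 42623 and 7626 TPM in the controls, so tubular transcripts were present in all 4 preparations. Control replicate 1 stood apart. Kap, an abundant proximal tubule transcript, held 1004 and 1202 TPM in the HDAC KO-labelled libraries, against 31062 TPM in that control and 987 TPM in the other. Havcr1, a marker of injured tubule, was at 365 and 449.9 TPM in the HDAC KO-labelled libraries, against 0.711 and 53.7 TPM in the controls. For a set of 6 markers of tubular injury the sums were 3775 and 2212 TPM in the HDAC KO-labelled libraries, against 222 and 361 TPM in the controls. Of these 6, Clu made up most of each sum, at 2681 and 1259 TPM, against 217 and 245 TPM. All 8 macrophage and leukocyte markers were higher in both HDAC KO-labelled libraries than in both controls (0 called by limma, 8 at an unadjusted p under 0.05). Of all genes tested, 36.7% showed that arrangement and 13.4% were higher at that p. The 8 macrophage and leukocyte markers summed to 1455 and 1583 TPM, against 116 and 343 TPM. The part of injured tubule or of these cells in the levels given here was not tested. In bulk RNA of this kind, fewer proximal tubule cells and less RNA of a gene per cell cannot be told apart.

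All 8 genes passed the filter of a mean of at least 1 TPM, and each was lower in both HDAC KO-labelled libraries than in both controls. Across all 18612 genes tested, 14.3% showed that arrangement and 36.7% showed the opposite one. Both shares were counted on TPM as deposited, and such counts depend on the scaling. Under median-ratio scaling, genes at an unadjusted limma p under 0.05 numbered 1775 higher and 1338 lower, against 2497 and 831 without it. The 8 genes were chosen on this contrast, so nothing is read from the count of 8. Their log2 fold changes, HDAC KO-labelled minus control on the log2(TPM + 1) scale, ran between -2.44 and -0.42 with a median of -1.47, beside a median of 0.17 over all genes tested. The spread among the 8 comes from those same values and is likewise a description. Miox and G6pc lay below -2, Slc37a4, Gk and Khk between -2 and -1, and Fbp1, Pcx and Pck1 above -1.

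Glucose-6-phosphatase is the last step of the path. G6pc (ENSMUSG00000078650.2, chromosome 11, 101367561 to 101377903 in GRCm38) was at 98.4 and 116 TPM in the HDAC KO-labelled libraries, against 397 and 493 TPM in the controls, with 1701, 2346, 6405 and 6362 reads behind these values. The lower control stood 3.41 times above the higher HDAC KO-labelled library, and the 2 values within each group lay close together. The log2 fold change was -2.04 (SE 0.20), with means of 107 ± 12.6 and 445 ± 68.1 TPM (HDAC KO-labelled first, SD, n = 2 each). It was between -2.19 and -1.88 with each library left out in turn, which makes G6pc, with Gk, the gene least dependent on any library among those with a log2 fold change under -1.

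Slc37a4 (chromosome 9, 44396852 to 44402968), the glucose-6-phosphate carrier that serves the same enzyme, was at 49.6 and 54.3 TPM in the HDAC KO-labelled libraries, against 215 and 114 TPM in the controls. The controls differed from each other by 0.90 log2 units, so the log2 fold change of -1.58 (SE 0.31) moved to -1.13 without control replicate 1 and -2.03 without control replicate 2. The groups did not overlap, which leaving out a library cannot change. G6pc ran at 1.99 and 2.14 times the TPM of Slc37a4 in the HDAC KO-labelled libraries, against 1.85 and 4.31 times in the controls, so this ratio lay inside the range of the controls.

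Fbp1 (chromosome 13, 62864753 to 62888282, minus strand) was at 299 and 377 TPM in the HDAC KO-labelled libraries, against 524 TPM at the lowest and 655 TPM at the highest in the controls. Its log2 fold change was -0.80 (SE 0.23). The nearest libraries of the 2 groups, at 377 and 524 TPM, were apart by 147 TPM, close to the 131 TPM between the controls. G6pc, which acts later in the path, ran at 0.330 and 0.308 of the TPM of Fbp1 in the HDAC KO-labelled libraries, against 0.606 and 0.941 in the controls, and the groups did not overlap.

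Pck1 (chromosome 2, 173153048 to 173159273) was the most abundant of the 8 in every library and had the smallest log2 fold change in size. It was at 812 and 954 TPM in the HDAC KO-labelled libraries, against 1072 and 1291 TPM in the controls, on 19940 to 27371 reads per library. The groups were separated by 117 TPM, less than the 142 TPM between the HDAC KO-labelled libraries and the 220 TPM between the controls. The log2 fold change of -0.42 (SE 0.25) was -0.28 without control replicate 2 and -0.55 without control replicate 1. Counting error is small at this depth, and the spread between libraries sets the precision.

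Pcx (chromosome 19, 4510472 to 4621752) was at 121 TPM in both HDAC KO-labelled libraries, against 329 and 131 TPM in the controls. Control replicate 2 was thus close to the HDAC KO-labelled libraries and control replicate 1 far above them. The log2 fold change of -0.77 (SE 0.43) was -0.11 without control replicate 1 and -1.44 without control replicate 2, so its size rests on control replicate 1.

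**Figure D1:**
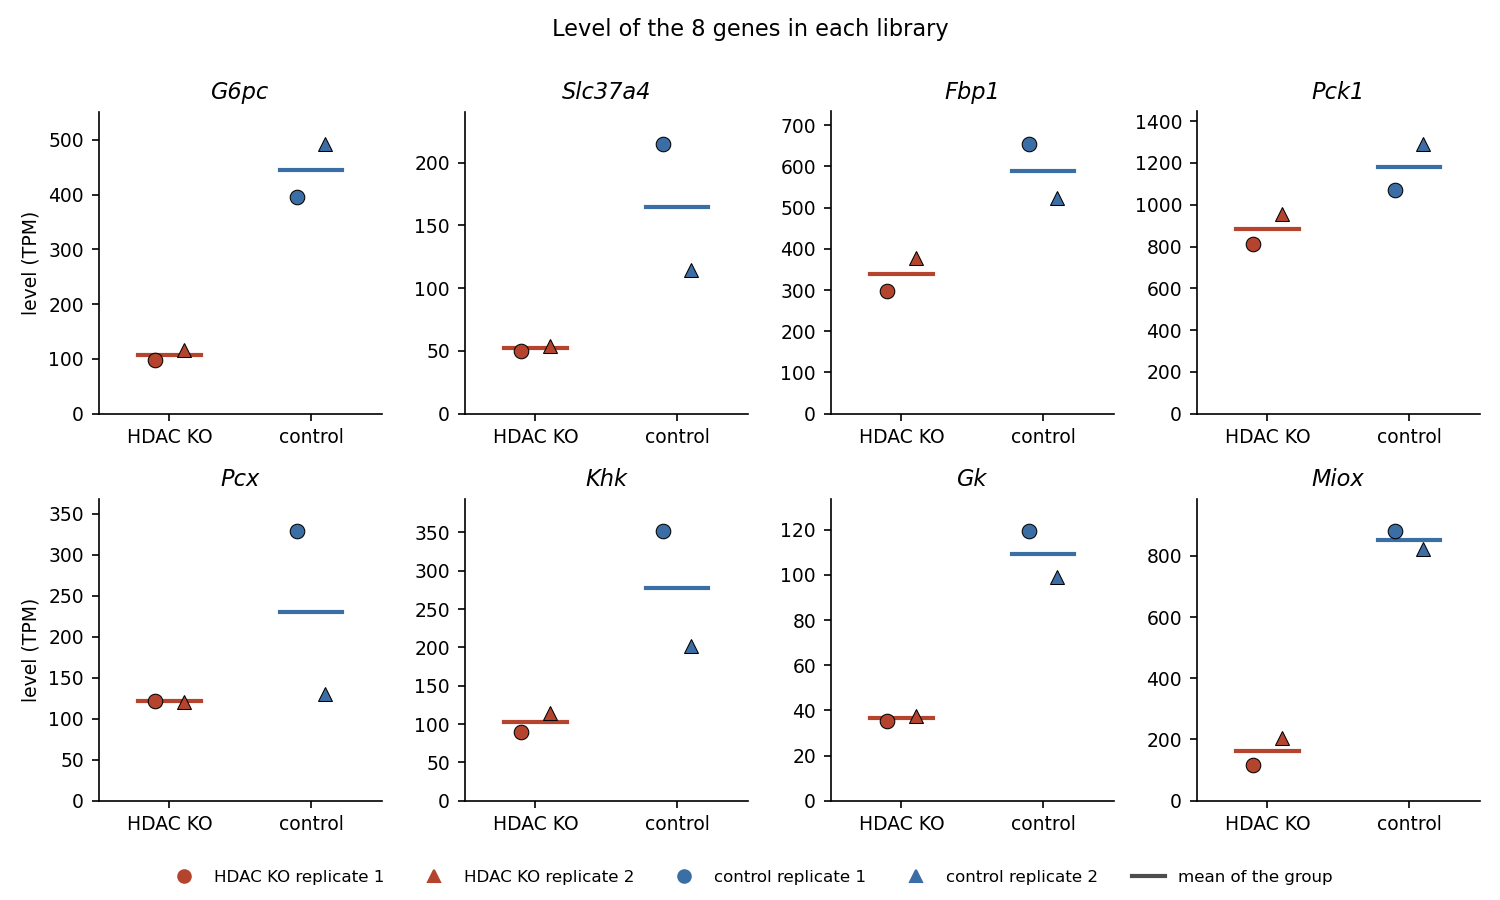
Level in TPM (vertical axes, linear, starting at 0) of the 8 genes in the 2 HDAC KO-labelled and 2 control libraries, with a bar at each group's mean. Every HDAC KO-labelled point lies below both control points, by a wide margin in Miox and G6pc and by a narrow one in Pcx, where control replicate 2 is at 131 TPM and the HDAC KO-labelled libraries are at 121 TPM.

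Ketohexokinase is the entry of fructose. Khk (chromosome 5, 30921431 to 30931248) was at 89.5 and 115 TPM in the HDAC KO-labelled libraries, against 352 and 202 TPM in the controls. Control replicate 1 was again the higher of the controls, and the log2 fold change of -1.39 (SE 0.31) was -0.99 without it. It was -1.79 without control replicate 2, and the groups were 87.6 TPM apart at their nearest.

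Gk (chromosome X, 85701937 to 85776819, minus strand), which phosphorylates glycerol, was at 35.2 and 37.7 TPM in the HDAC KO-labelled libraries, against 119 and 99.3 TPM in the controls. Both groups were tight, and the log2 fold change was -1.55 (SE 0.17), between -1.69 and -1.42 with each library left out. Relative to Gpd1, the glycerol-3-phosphate dehydrogenase that takes the next step, Gk was at 0.499 and 0.392 in the HDAC KO-labelled libraries, against 0.629 and 0.812 in the controls. Of the exon bases of Gk, 1.09% lie in exons of Gm14764, and 0.914% of its 50-base stretches occur in transcripts of other genes, Gm14764 and Gk2 among them. For the other 7 genes both shares were 0%, so reads of 50 bases or more would not be shared with another annotated gene.

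Miox (chromosome 15, 89334398 to 89337015) had the widest difference. It was at 118 and 206 TPM in the HDAC KO-labelled libraries, against 882 and 822 TPM in the controls. The controls differed by less than the HDAC KO-labelled libraries (59.7 TPM between the controls, 88.8 TPM between the HDAC KO-labelled libraries), and the groups were 616 TPM apart at their nearest. The log2 fold change was -2.44 (SE 0.30), with means of 162 ± 62.8 and 852 ± 42.2 TPM (HDAC KO-labelled first, SD, n = 2 each). It was -2.04 without HDAC KO-labelled replicate 1 and -2.85 without HDAC KO-labelled replicate 2.

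**Figure D2:**
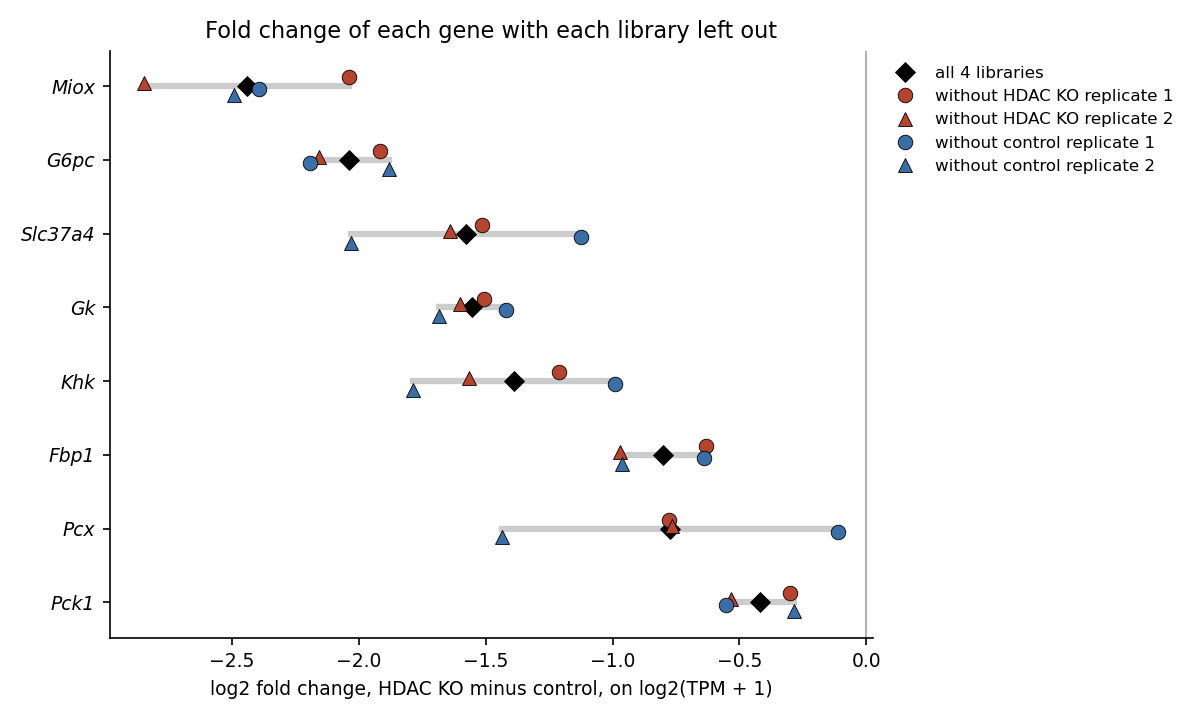
Log2 fold change (horizontal axis, HDAC KO minus control on log2(TPM + 1)) of each gene with all 4 libraries and with each library left out. All values are below 0, as they must be where the groups do not overlap. The spread is widest for Pcx, between -1.44 and -0.11, and narrow for Gk, between -1.69 and -1.42.

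The order of the levels differed between the groups. In the HDAC KO-labelled libraries it was Pck1, Fbp1, Miox, Pcx, G6pc, Khk, Slc37a4 and Gk, and the ranges of Miox and Pcx and of G6pc and Khk overlapped. In the controls it was Pck1, Miox, Fbp1, G6pc, Khk, Pcx, Slc37a4 and Gk, and the last 4 overlapped each with its neighbour. Miox, G6pc and Khk each stood 1 place lower in the HDAC KO-labelled libraries than in the controls, and Pcx stood 2 places higher. Even the lowest value, that of Gk in HDAC KO-labelled replicate 1, exceeded 88.0% of the genes listed in that library.

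Ratios within a library do not depend on how libraries are scaled. The pairs were picked after the values were seen. G6pc was at 0.121 and 0.122 of the TPM of Pck1 in the HDAC KO-labelled libraries, against 0.370 and 0.382 in the controls. Miox was at 0.145 and 0.216 of Pck1 in the HDAC KO-labelled libraries, against 0.823 and 0.637 in the controls. In both ratios the groups were far apart compared with the spread inside each group, and G6pc against Pck1 was almost constant within each group. These ratios share the differences that chose the genes, so they describe these 4 libraries and are not tested. An exact permutation test of 2 against 2 libraries cannot go below a two-sided p of 0.333.

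**Figure D3:**
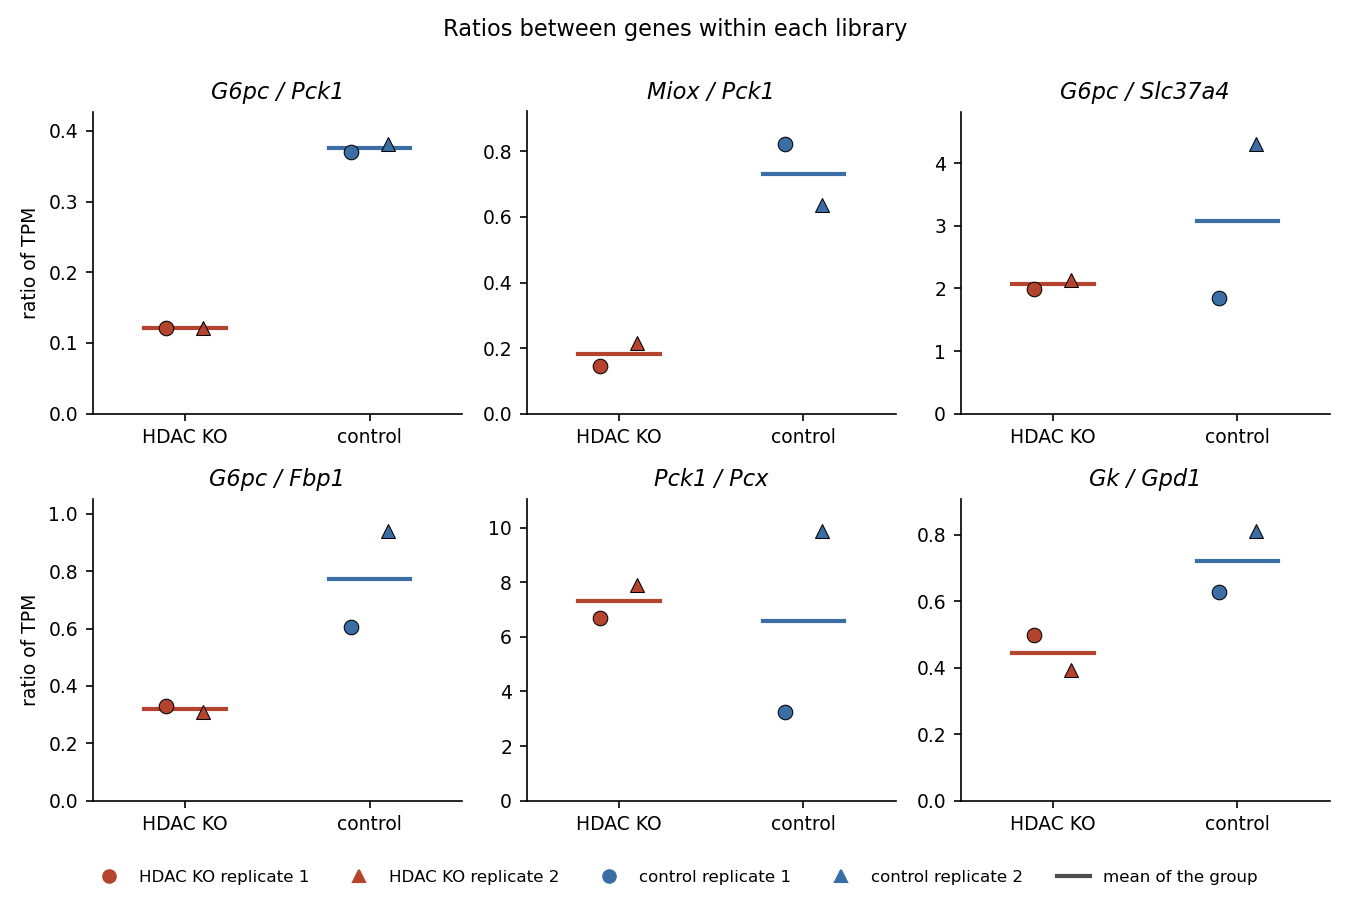
Ratio of TPM between pairs of genes within each library (vertical axes, linear, starting at 0), with a bar at each group's mean. G6pc and Miox are lower relative to Pck1 in both HDAC KO-labelled libraries (0.121 and 0.122, and 0.145 and 0.216) than in both controls, while G6pc relative to Slc37a4 (1.99 and 2.14 in the HDAC KO-labelled libraries) lies within the range of the controls.

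Proximal tubule markers were lower in the HDAC KO-labelled libraries too. Of the 16 markers, 15 were lower in both HDAC KO-labelled libraries than in both controls, with a median log2 fold change of -1.38 (0 called by limma with adjusted p below 0.05, 10 lower at an unadjusted p under 0.05). Of all genes tested, 14.3% showed that arrangement and 4.46% were lower at that p. Lrp2, the endocytic receptor megalin, was at 363 and 415 TPM in the HDAC KO-labelled libraries, against 1453 and 997 TPM in the controls. Cubn, its partner cubilin, was at 105 and 97.7 TPM, against 162 and 190 TPM, and Slc34a1, a phosphate cotransporter, at 914 and 1128 TPM, against 3666 and 2077 TPM. The median of the 8 genes minus that of the markers was -0.09, so as a group the 8 lay about as low as the tubule markers, with some genes lower than these and some higher. Miox (a difference of -1.06) and G6pc (-0.66) lay below the marker median. Slc37a4 (-0.20), Gk (-0.17) and Khk (-0.01) lay near it, and Fbp1 (0.58), Pcx (0.61) and Pck1 (0.96) lay above it. The sizes of these differences depended on the libraries, and those of Miox, G6pc, Gk, Fbp1, Pcx and Pck1 moved most with the controls. The HDAC KO-labelled libraries moved them too, with Miox at -0.84 without HDAC KO-labelled replicate 1 and -1.33 without HDAC KO-labelled replicate 2. G6pc was at -1.32 without control replicate 1 and -0.18 without control replicate 2, where Slc37a4 at -0.33 lay further below, and Miox was at -1.52 and -0.80 under the same omissions. Pck1 was at 0.33 without control replicate 1 and 1.41 without control replicate 2, Fbp1 at 0.24 and 0.73, and Pcx at 0.77 and 0.26. With any 1 library left out, Miox, G6pc, Slc37a4 and Khk stayed below the median of the 16 markers and Pck1, Fbp1 and Pcx above it, while Gk was at -0.54 without control replicate 1 and 0.01 without control replicate 2. Some of these sides changed with the yardstick. Against Lrp2 and Cubn alone, Khk was at 0.14 and Slc37a4 at 0.002 without control replicate 1, and Pcx at -0.15 without control replicate 2. Miox, G6pc, Fbp1 and Pck1 kept their sides under every setting and yardstick.

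The values of each library were set against the markers as well. As a percentage of the summed TPM of 15 proximal tubule markers (Kap left out), Pck1 was at 22.4% and 24.3% in the HDAC KO-labelled libraries, against 9.27% and 19.5% in the controls, and Fbp1 was at 8.24% and 9.60%, against 5.66% and 7.89%. Pcx was at 3.35% and 3.07%, against 2.85% and 1.97%. Thus the 3 genes with the smallest log2 fold changes in size were higher, relative to these markers, in both HDAC KO-labelled libraries than in both controls. Miox was at 3.24% and 5.25% in the HDAC KO-labelled libraries, against 7.63% and 12.4% in the controls, and G6pc was at 2.72% and 2.96%, against 3.43% and 7.43%. Slc37a4, Khk and Gk were also lower by this measure, with Khk at 2.47% and 2.92%, against 3.04% and 3.05%. How far the amount of tubule in each preparation accounts for the levels was not tested.

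**Figure D4:**
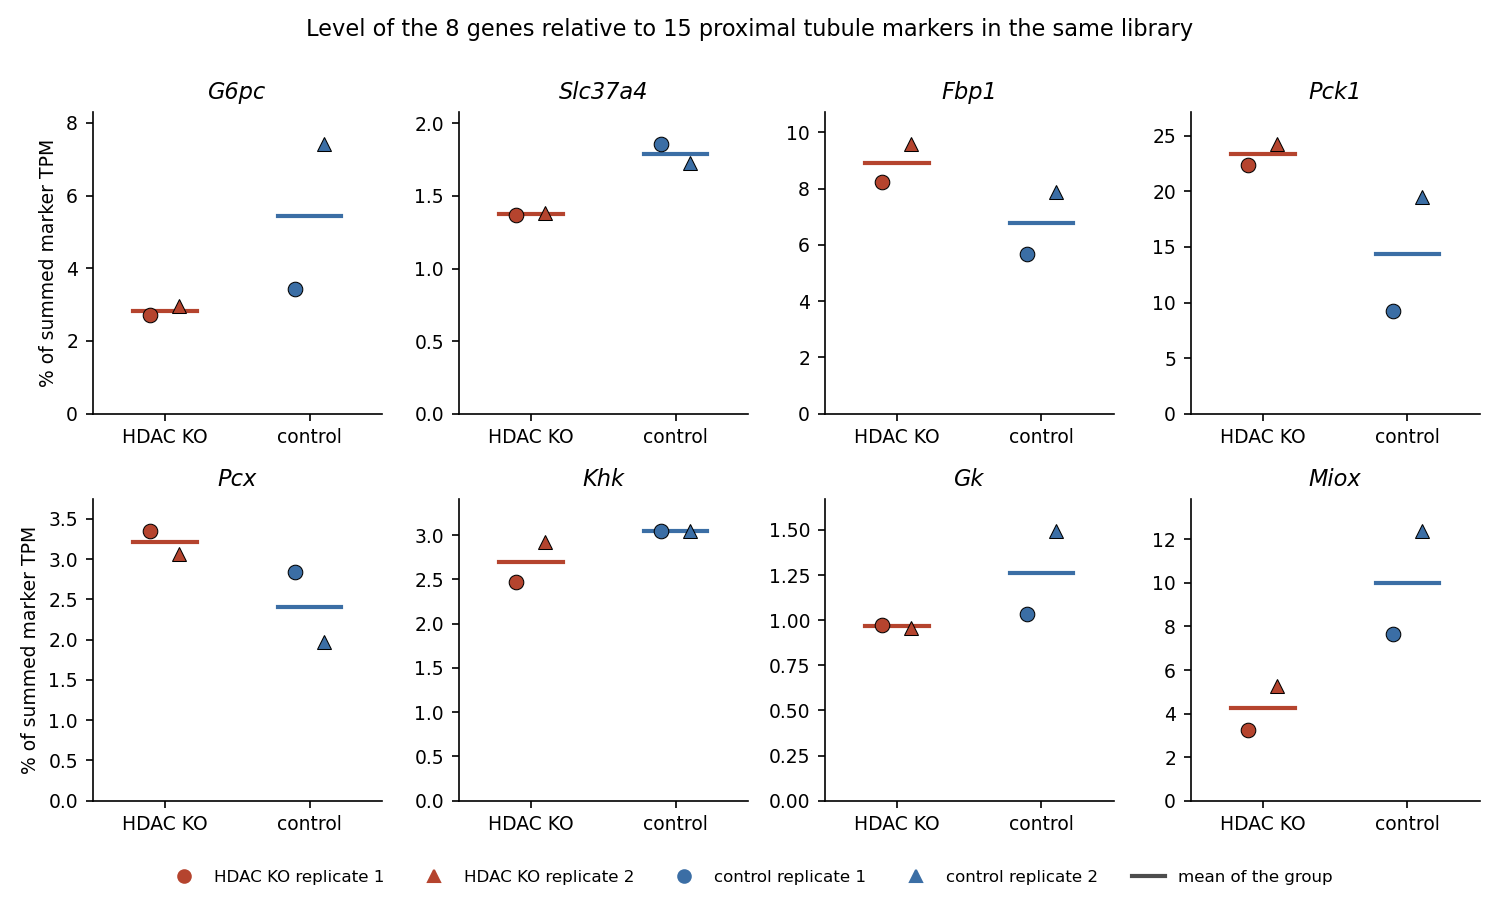
TPM of each gene as a percentage of the summed TPM of 15 proximal tubule markers in the same library (vertical axes, linear, starting at 0), with a bar at each group's mean. Pck1, Fbp1 and Pcx are higher in both HDAC KO-labelled libraries than in both controls by this measure, and the other 5 genes are lower.

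The other genes of these pathways were taken from lists drawn up by function. A test across all genes (limma on log2(TPM + 1), Benjamini-Hochberg adjustment over all 18612 genes) called 1 gene lower (0.00537%) and 0 higher (0%), with 4.46% lower and 13.4% higher at an unadjusted p under 0.05. A test on the recovered reads (voom) called 0 in either direction. None of the genes in these lists was called by either test. Without control replicate 2, limma called 522 genes lower and 1558 higher, with 2 or 3 genes of each list below among them.

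Of 30 other genes of gluconeogenesis and its precursors, 14 were lower in both HDAC KO-labelled libraries and 6 higher, with a median log2 fold change of -0.21. The share lower was 46.7%, against 14.3% of all genes lower and 36.7% higher. Those with the smallest p lay on both sides. Slc5a8, a sodium-coupled carrier of lactate and pyruvate, was at 22.4 and 22.1 TPM in the HDAC KO-labelled libraries, against 169 and 63.4 TPM in the controls. Slc16a7, a monocarboxylate transporter, was at 29.9 and 22.2 TPM, against 52.7 and 46.7 TPM, while the related Slc16a1 was at 55.0 and 54.1 TPM, against 36.6 and 27.6 TPM. Carriers of the same substrates therefore lay on both sides. Pdk4, a kinase that blocks the entry of pyruvate into the citric acid cycle, had the largest positive log2 fold change of the list, 1.85 with SE 0.23 (limma adjusted p = 0.0928), at 48.2 and 44.2 TPM in the HDAC KO-labelled libraries, against 10.05 and 14.5 TPM in the controls. Mdh1, the cytosolic malate dehydrogenase, had a log2 fold change of -0.70 with SE 0.21 (limma adjusted p = 0.187).

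Sister genes of the members, which encode other forms of the same enzymes, were less abundant than the members in every library. Pck2, the mitochondrial phosphoenolpyruvate carboxykinase, was at 8.64 and 9.39 TPM in the HDAC KO-labelled libraries, against 5.13 and 6.73 TPM in the controls (a log2 fold change of 0.54 with SE 0.25, limma adjusted p = 0.339). G6pc3, the widely expressed glucose-6-phosphatase, was at 28.0 and 26.8 TPM, against 35.9 and 22.7 TPM, and its groups overlapped. Fbp2, the muscle fructose-bisphosphatase, was at 15.5 and 19.9 TPM, against 11.7 and 22.4 TPM, also with overlap. Gk5, another member of the glycerol kinase family, was at 7.17 and 8.02 TPM, against 6.16 and 6.69 TPM. Whether a member and its sister gene differed in their response was not tested.

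Of 12 other genes of fructose and polyol metabolism, 6 were lower in both HDAC KO-labelled libraries and 3 higher, with a median of -0.23. Of all genes tested, 14.3% were lower in both and 36.7% higher. Slc2a5, the fructose transporter GLUT5, was at 10.4 TPM in both HDAC KO-labelled libraries, against 25.0 and 27.7 TPM in the controls (a log2 fold change of -1.26 with SE 0.18, limma adjusted p = 0.0988). Glyctk, a glycerate kinase, was at 10.7 and 11.5 TPM, against 34.8 and 20.6 TPM, and Sord, which makes fructose from sorbitol, at 204 and 341 TPM, against 643 and 523 TPM. These 3 genes, like Khk, were lower in both HDAC KO-labelled libraries than in both controls. Tkfc, which phosphorylates the glyceraldehyde made from fructose, had a log2 fold change of -0.70 (SE 0.20), and Slc2a2, the basolateral glucose transporter GLUT2, of -0.52 (SE 0.15). Hk2, a hexokinase, was at 8.26 and 7.21 TPM in the HDAC KO-labelled libraries, against 0.476 and 2.13 TPM in the controls (a log2 fold change of 2.02 with SE 0.43, limma adjusted p = 0.119).

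Of 7 other glycerol genes tested, 2 were lower in both HDAC KO-labelled libraries and 3 higher, beside 14.3% lower and 36.7% higher over all genes. Gpd1 was at 70.7 and 96.2 TPM in the HDAC KO-labelled libraries, against 190.0 and 122 TPM in the controls, and Aqp3, a water and glycerol channel, at 228 and 175 TPM, against 405 and 243 TPM. Aqp7, the glycerol channel of the late proximal tubule, was at 22.5 and 21.5 TPM, against 18.9 and 15.6 TPM. The median of this list, -0.25, was 0.16 without control replicate 1. Gpd1l, Gpd2 and Pgp had log2 fold changes of 0.23, -0.36 and -0.25 with SEs of 0.16, 0.40 and 0.22. Aqp9 was listed at 0.0674 and 0.231 TPM in the HDAC KO-labelled libraries and at 0 in both controls, and did not pass the filter.

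Of 12 other genes of inositol and glucuronate tested, 7 were lower in both HDAC KO-labelled libraries and 2 higher, with a median of -0.35. The shares over all genes were 14.3% lower and 36.7% higher. Dcxr, the xylulose reductase that acts downstream of Miox, was at 56.0 and 65.7 TPM in the HDAC KO-labelled libraries, against 121 and 114 TPM in the controls (a log2 fold change of -0.94 with SE 0.16, limma adjusted p = 0.106). Slc5a11, a sodium-coupled inositol transporter, was at 30.3 and 37.0 TPM, against 70.7 and 56.4 TPM. Neither passed the test, and their difference from Miox was not tested. Xylb, the xylulokinase that ends the route, had a log2 fold change of -0.66 (SE 0.21), Impa1, an inositol monophosphatase, of -0.58 (SE 0.17), and Akr1a1, which reduces glucuronate, of -0.43 (SE 0.24).

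Of 20 regulators of gluconeogenesis, 5 were lower in both HDAC KO-labelled libraries and 6 higher, and the median log2 fold change was 0.04. Over all genes 14.3% were lower and 36.7% higher, so nothing is read from the 6 higher regulators. Cebpb, a transcription factor of acute-phase genes that also acts on Pck1, was at 25.8 and 31.5 TPM in the HDAC KO-labelled libraries, against 6.96 and 8.46 TPM in the controls (a log2 fold change of 1.77 with SE 0.21, limma adjusted p = 0.0928). Sik1, a kinase that restrains cyclic AMP signalling, was at 44.4 and 61.4 TPM, against 18.2 and 27.8 TPM. The insulin receptor substrates lay on opposite sides, with Irs2 at 32.9 and 32.8 TPM, against 13.9 and 20.8 TPM, and Irs1 at 8.81 and 10.2 TPM, against 17.6 and 16.8 TPM. Cebpa had a log2 fold change of 0.52 (SE 0.18) and Prkaa2, a catalytic subunit of AMP-activated kinase, of -0.42 (SE 0.17). Hnf4a, a transcription factor of the proximal tubule named after its values were seen because its site was searched for, was at 189 and 228 TPM in the HDAC KO-labelled libraries, against 316 and 256 TPM in the controls. Its groups did not overlap, and it was not called.

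**Figure D5:**
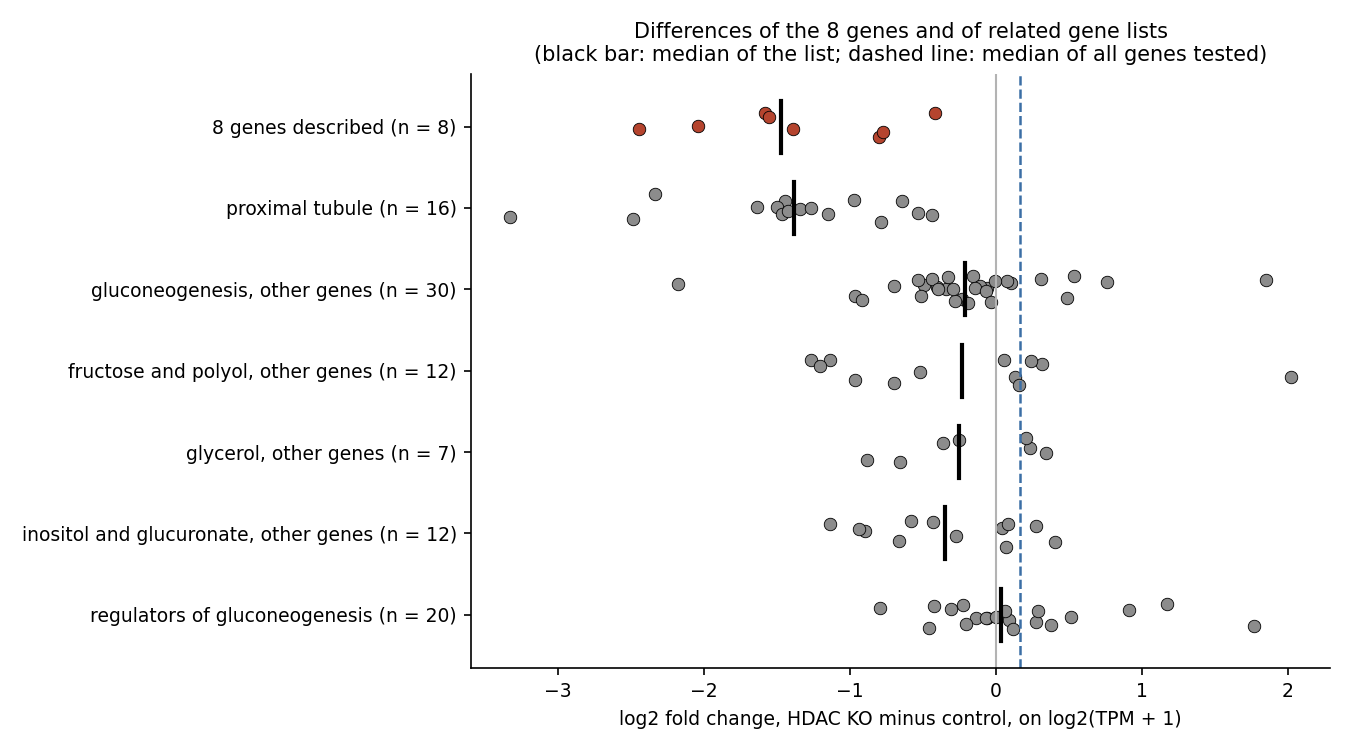
Log2 fold change (horizontal axis, HDAC KO minus control on log2(TPM + 1)) of the 8 genes, of the 16 proximal tubule markers and of the tested genes of each related list, 1 point per gene, with a black bar at each median. The 8 genes have a median of -1.47 and the proximal tubule markers a median of -1.38, with Pck1 at -0.42 just above the highest marker at -0.44, while the related lists have medians between -0.35 and 0.04 and hold genes on both sides of 0.

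Among 7950 other genes with a mean of at least 10 TPM, those whose profile over the 4 libraries lay nearest to the mean of the 8 were Lactb2, Car14, Galnt11, Insrr, Slc13a3, Aadat, Aldh6a1 and the clone-named AC117239.2. Their root mean square distances were between 0.038 and 0.108 log2 units, beside a median of 0.81 over all genes compared. Lactb2, the nearest, was at 65.0 and 74.2 TPM in the HDAC KO-labelled libraries, against 200.3 and 155 TPM in the controls. Slc13a3, a dicarboxylate transporter and 1 of the 16 proximal tubule markers, was at 110 and 129 TPM, against 397 and 261 TPM. With 4 libraries such nearness is a description of these samples, and 7 of the 8 genes were the same with a pseudocount of 0.1 and 6 of them with 5.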

How the data were processed

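The values are TPM as deposited by the authors, for 22809 genes by Ensembl ID, and the 4 columns were matched to samples by their names. Per the submitters' processing notes, the genome build was GRCm38.p6 and the tools were STAR 2.7.9, DESeq2 1.30.1, fastp 0.20 and featureCounts 2.0.0, given without role or order. No source used here states the strand setting or the gene filter. Symbols for 22762 genes and exon lengths came from GENCODE M21. TPM times exon length gave whole reads in every library for 97.2% of genes (relative tolerance 1e-06), which gives the depths. Differences were fitted with limma 3.58.1 (trend) in R 4.3.3 on log2(TPM + 1) for the 18612 genes with a mean of at least 1 TPM (4197 left out), with Benjamini-Hochberg adjustment at 0.05 and 2 residual degrees of freedom. This scale understates changes of low genes. The libraries are separate pools of mice, so the spread includes that between pools. The fit was tested on simulated reads at known fold changes.

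The members and lists were chosen with earlier results of these data known. Named are the 8 members, Hdac1 and Hdac2, sister genes of the members, the 6 genes of each related list with the smallest p, 3 proximal tubule markers and the 8 genes nearest in profile. Other genes are named where a sentence says so, or, as Kap and Havcr1, to describe a library. G6pc2 and Gykl1, also in the lists, had no entry under those symbols in the deposited values, so they were not analysed here. Some results that the rule covers are not reported here. Promoter sequences are from RefSeq in GRCm38.p6. Alternatives were median-ratio scaling, a filter at 5 TPM or none, pseudocounts of 0.1 and 5, leaving out mitochondrially encoded genes, the replicate number as a block, each library left out, other tubule yardsticks, and voom on the recovered reads. Summaries used pandas 2.3.3 and numpy 2.4.6 under Python 3.11.15, and figures matplotlib 3.10.9.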

Additional observations from a re-analysis of the deposited data

How the results depend on the processing

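Under the alternatives, all 96 values of the 8 genes' log2 fold changes were negative. Of these, 4 moved by more than the replicate SD, those of G6pc, Fbp1, Pck1 and Gk under median-ratio scaling. Much of this was fixed in advance and is no check. Leaving out 1 library cannot change the sign where the groups do not overlap, nor shift a fold change by more than that SD. The other filters and the replicate block left each fold change as it was. Median-ratio scaling gave a median of -0.03 for all genes, against 0.17 without it, and medians of -1.70 for the 8 genes, -0.45 for the other gluconeogenesis genes, -0.46 for fructose and polyol, -0.58 for inositol and glucuronate and -0.20 for the regulators. With each library left out, the median of the 8 was between -1.74 (without control replicate 2) and -1.06 (without control replicate 1), that of the other gluconeogenesis genes between -0.40 and -0.15, of the fructose and polyol genes between -0.40 and -0.14, of the glycerol genes between -0.48 and 0.16, and of the regulators between -0.11 and 0.13. The fructose and polyol median was -0.61 with a mean of at least 5 TPM, and the regulators' median was -0.081 by voom. The median of the 8 lay -0.26 from that of Lrp2 and Cubn.

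Leaving out a library gave 0 to 2080 called genes (0 to 1558 higher, 0 to 522 lower), and 0 to 3 in each of the gluconeogenesis, fructose and regulator lists and 0 to 2 in each of the glycerol and inositol lists. The highest counts were all without control replicate 2, where the lone control is assumed to vary like the other group, and the cause was not tested. Voom called 0 genes. With the replicate number as a block 1 gene was called, as without it, and deviations of same-numbered libraries correlated at 0.14 over genes. Only 2 pairs exist, so the numbers are not shown to pair the samples. With 2 libraries a group the spread between libraries, not read depth, limits the precision.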
